A study of Mus musculus with 35 samples.

Results

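A group of 10 genes of the contractile apparatus of myofibroblasts and smooth muscle was followed in mouse skin wounds: Acta2, Tagln, Cnn1, Myl9, Tpm1, Tpm2, Actg2, Myh11, Lmod1 and Smtn. They were matched by gene symbol, and all 10 were found among the 22830 symbols of each of the 2 deposited count tables. Bulk RNA-seq covered 35 wounds in 8 groups, from male and female mice of 8 to 12 weeks. RNA came from a punch biopsy of the middle of the wound or scar. Col5a1CKO mice carried Col1a2CreERT and Col5a1 fl/fl, and received tamoxifen around the time of full-thickness excision. WT mice were littermates without Cre that also carried Col5a1 fl/fl and received tamoxifen and the wound. The Cre driver acts in cells that use the Col1a2 enhancer, mainly fibroblasts, while the biopsy holds all cells of the wound. The first table held 7 WT and 7 Col5a1CKO wounds of day 14, and 3 wounds of each genotype from day 19. It also held 3 Col5a1CKO wounds of day 14 that were injected with WT skin fibroblasts 3 days after wounding. Legends of the paper give 7 day 14 wounds of each genotype as vehicle-treated, while the sample titles name no vehicle. The other table, of day 14 wounds, held 4 WT wounds given vehicle, 4 Col5a1CKO wounds given vehicle and 4 Col5a1CKO wounds given cilengitide, an inhibitor of the alpha v beta 3 integrin.

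Contractile cells shorten when myosin pulls on actin filaments, and proteins along the thin filament set when that can happen. In a healing wound, fibroblasts take on part of this program and become myofibroblasts, which draw the wound edges together and are usually recognised by alpha smooth muscle actin. Vascular smooth muscle and pericytes carry the same program in uninjured skin, and many of its genes are driven by serum response factor (Srf) with its cofactors of the myocardin family, which bind a DNA element called the CArG box.

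The members were described by their roles, with positions in mouse build NCBI37/mm9. The actins are Acta2, alpha smooth muscle actin, on chromosome 19 from 34315580 to 34329826 on the minus strand, and Actg2, enteric gamma smooth muscle actin, on chromosome 6 from 83462899 to 83486259 on the minus strand. The myosin genes are Myh11, the smooth muscle heavy chain, on chromosome 16 from 14194620 to 14291501 on the minus strand, and Myl9, a regulatory light chain, on chromosome 2 from 156601156 to 156607394 on the plus strand. Tagln encodes transgelin (SM22), an actin cross-linker, and lies on chromosome 9 from 45737711 to 45744141 on the minus strand. Cnn1 encodes calponin, which restrains the myosin ATPase on the thin filament, and lies on chromosome 9 from 21903725 to 21914074 on the plus strand. The tropomyosins, which run along the actin filament, are Tpm1 on chromosome 9 from 66870397 to 66897213 on the minus strand and Tpm2 on chromosome 4 from 43527583 to 43536637 on the minus strand. Lmod1 encodes a leiomodin that starts new actin filaments in smooth muscle, and lies on chromosome 1 from 137221384 to 137264642 on the plus strand. Smtn encodes smoothelin, an actin-binding protein of contractile smooth muscle, and lies on chromosome 11 from 3417526 to 3440615 on the minus strand. The counts were made on the exons of each of these genes. Acta2 and Actg2 encode near-identical proteins, as does Acta1 of skeletal muscle, and how any reads shared between these genes were assigned is uncertain. Tpm1 and Tpm2 are also made in skeletal muscle, from which the other members are largely absent.

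Of the 10 members, 7 had an entry in the RefSeq promoter table of build GRCm38.p6 (not Tagln, Actg2 or Myh11), and the 250 bases upstream of each start were searched on both strands. Acta2 and Myl9 are shown because they held the elements nearest to a CArG box. Capitals mark a CArG box, a CArG box with 1 G or C in its A/T core (a pattern added after the sequences were seen) and the MCAT element, CATTCC or GGAATG, which TEAD factors bind.
Acta2, GRCm38.p6 chr19:34255374-34255623, minus strand: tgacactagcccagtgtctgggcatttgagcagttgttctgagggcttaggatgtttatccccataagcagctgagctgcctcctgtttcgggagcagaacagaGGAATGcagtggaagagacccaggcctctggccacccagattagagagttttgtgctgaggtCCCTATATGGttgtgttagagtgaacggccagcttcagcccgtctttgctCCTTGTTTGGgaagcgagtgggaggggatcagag
Myl9, GRCm38.p6 chr2:156775214-156775463, plus strand: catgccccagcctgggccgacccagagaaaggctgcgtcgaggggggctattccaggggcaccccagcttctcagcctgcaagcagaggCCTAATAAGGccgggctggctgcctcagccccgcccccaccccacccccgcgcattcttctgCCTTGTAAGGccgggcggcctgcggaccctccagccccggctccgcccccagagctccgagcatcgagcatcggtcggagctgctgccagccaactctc
A strict CArG box stood in the Myl9 window and in 1.47% of 32851 RefSeq promoters of the same length. The form with 1 G or C stood in Acta2 and Myl9, and 8.59% of all promoters held the strict form or this one. MCAT elements stood in Acta2, Tpm1, Lmod1 and Smtn, and in 12.6% of all promoters, without overlap with the CArG forms. These are matches of letters within a short window, and no binding was measured.

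The authors deposited raw counts, and a wound had 15043531 to 35700337 of them in the table of days 14 and 19 and 51211600 to 68266760 in the cilengitide table. Levels are given as CPM, counts scaled to a common library size with TMM factors, which are not comparable between the tables, or as RPKM where genes are compared with each other. The treatment field of the deposited record names WT fibroblasts for the 3 Col5a1CKO wounds of day 19, whereas the sample titles and column headers place them at day 14. The titles were followed here. The balance of reads between genes of high and low GC content divided the 23 wounds of the first table into 2 library sets, 1.54 log2 units apart at their nearest. The lower set held WT a to d and Col5a1CKO a to e of day 14, and the upper set the other 14 wounds, including all those of day 19 and all with fibroblasts. In the upper set the day 14 WT wounds had RNA of Y-linked genes and the Col5a1CKO wounds Xist RNA, so sex and genotype cannot be told apart there. Skeletal muscle markers (14 genes) summed to 24.4 to 46382 CPM per wound in this table. Col5a1, the deleted gene, had a log2 fold change of -1.43 between Col5a1CKO and WT at day 14, -1.70 at day 19 and -1.17 with vehicle, none past an edgeR adjusted p of 0.05 (0.0757, 0.272 and 0.23). The wounds are separate samples by their labels, and the p-values measure the spread between them.

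Per length, Tpm1, Tpm2 and Acta2 led the contractile genes in WT wounds of day 14, and Myh11, Lmod1 and Cnn1 stood at the end. In WT wounds of day 14 the median level was 163 RPKM for Tpm1, 73.3 for Tpm2, 72.3 for Acta2, 39.6 for Myl9 and 33.1 for Tagln. It was 16.3 RPKM for Smtn, 5.13 for Actg2, 1.03 for Myh11, 0.819 for Lmod1 and 0.740 for Cnn1. The last 3 lay close together, and neighbours in this order had overlapping ranges over wounds, except Actg2 (at least 1.88 RPKM) and Myh11 (at most 1.69). In Col5a1CKO wounds of day 14 the medians were 427 RPKM for Tpm1, 381 for Acta2, 259 for Tagln, 97.7 for Actg2, 24.1 for Cnn1, 4.10 for Myh11 and 2.85 for Lmod1. At day 14 calponin thus stood last in WT wounds and above smoothelin, myosin heavy chain and leiomodin in Col5a1CKO wounds. At day 19 its median was 2.27 RPKM in WT wounds, above Lmod1 only, and 23.7 RPKM in Col5a1CKO wounds, where Smtn had 44.2.

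**Figure D1:**
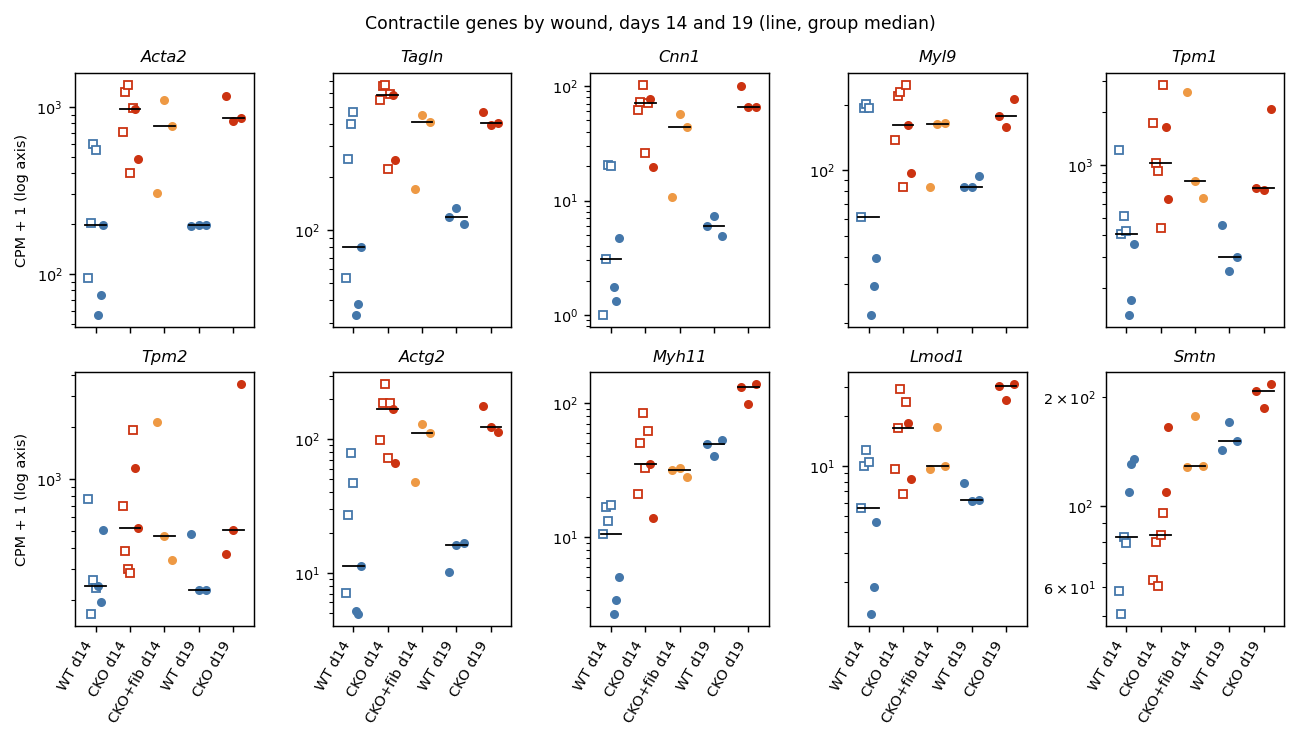
Level of each of the 10 contractile genes in each wound of days 14 and 19, as CPM + 1 on a log axis. Open squares are wounds of the lower library set, filled circles those of the upper set, and the line is the group median; at day 19 the Col5a1CKO wounds lie above all WT wounds for each gene but Tpm2.

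At day 14 the contractile genes stood higher in Col5a1CKO than in WT wounds, with the largest fold for calponin, and 4 of the 10, Acta2, Cnn1, Actg2 and Myh11, rose past the test. The call was an adjusted p under 0.05 and at least a 2-fold change in edgeR's quasi-likelihood test of 7 against 7 wounds, with Benjamini-Hochberg adjustment over all 14367 genes tested, of which 5.57% were called higher. Every member had a log2 fold change above 0 and their median was 1.47, against -0.03 over all genes. DESeq2 called the same 4 and Tpm1, 5 of 10, against 8.67% of all genes. Acta2 was 55.7 to 601 CPM (median 195) in WT and 402 to 1357 CPM (median 966) in Col5a1CKO wounds (log2 fold change 1.80, SE 0.54, adjusted p = 0.0442). WT c and d, with 601 and 549.9 CPM, stood above Col5a1CKO d and g, and the other 5 WT wounds stood below all Col5a1CKO wounds. Actg2 was 3.89 to 77.7 CPM (median 10.2) in WT and 64.8 to 258 CPM (median 168) in Col5a1CKO wounds (log2 fold change 2.56, SE 0.67, adjusted p = 0.0268). Here a single WT wound, c, reached above the lowest Col5a1CKO wounds, d and g.

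The myosin genes differed from each other in what passed. Myh11 was 1.64 to 16.4 CPM (median 9.58) in WT and 13.0 to 83.0 CPM (median 34.4) in Col5a1CKO wounds (log2 fold change 2.23, SE 0.55, adjusted p = 0.0217). Of the Col5a1CKO wounds, only g lay within the WT range. Myl9 was 20.7 to 199 CPM (median 60.3) in WT and 82.6 to 246 CPM (median 160.4) in Col5a1CKO wounds, and the test was not passed (log2 fold change 0.67, SE 0.51, adjusted p = 0.427). Its WT wounds b, c and d had 192 to 199 CPM, below Col5a1CKO b, c and e and above the other 4 Col5a1CKO wounds, and WT e to g had 20.7 to 38.8 CPM.

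Among the thin filament genes, Cnn1 was 0 to 19.4 CPM (median 2.08) in WT and 18.5 to 101 CPM (median 69.3) in Col5a1CKO wounds (log2 fold change 3.24, SE 0.99, adjusted p = 0.0495). WT a had no Cnn1 count, and the groups met only where WT c and d, with 19.4 and 18.9 CPM, touched Col5a1CKO g with 18.5. Tagln was 32.0 to 465 CPM (median 79.3) in WT and 221 to 668 CPM (median 587) in Col5a1CKO wounds, and did not pass (log2 fold change 1.42, SE 0.60, adjusted p = 0.141). Tpm1 was 138 to 1215 CPM (median 406) in WT and 436 to 2873 CPM (median 1033) in Col5a1CKO wounds (log2 fold change 1.51, SE 0.51, adjusted p = 0.0728). Tpm2 was 164 to 767 CPM (median 238) in WT and 284 to 1907 CPM (median 516) in Col5a1CKO wounds (log2 fold change 1.15, SE 0.49, adjusted p = 0.145). The tropomyosin ranges overlapped between the genotypes, with WT a and Col5a1CKO e the highest wounds of their groups. Lmod1 was 0.274 to 11.4 CPM (median 4.53) in WT and 5.78 to 27.9 CPM (median 16.0) in Col5a1CKO wounds (log2 fold change 1.42, SE 0.66, adjusted p = 0.174). Smtn was the exception, with 49.5 to 134 CPM (median 81.5) in WT and 59.3 to 164 CPM (median 82.3) in Col5a1CKO wounds (log2 fold change 0.05, SE 0.28, adjusted p = 0.929). For none of the 10 did the groups stand apart without overlap, where 2.31% of all genes did so in the higher direction.

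The number of calls moved with single wounds, for the members and for all genes. Without Col5a1CKO c none was called, without WT g or Col5a1CKO f 1 was, without WT b, e or f or Col5a1CKO a, b or e 2 were, and without Col5a1CKO d or g 5 were. Acta2 lost its call also without WT a, where Tpm1 gained one. Of all genes, 800 were called higher with all wounds, 539 without Col5a1CKO c, 499 without Col5a1CKO f, 596 without WT g and 918 without Col5a1CKO g. In bulk RNA, fewer cells of a type and less RNA per cell cannot be told apart, here and below.

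**Figure D2:**
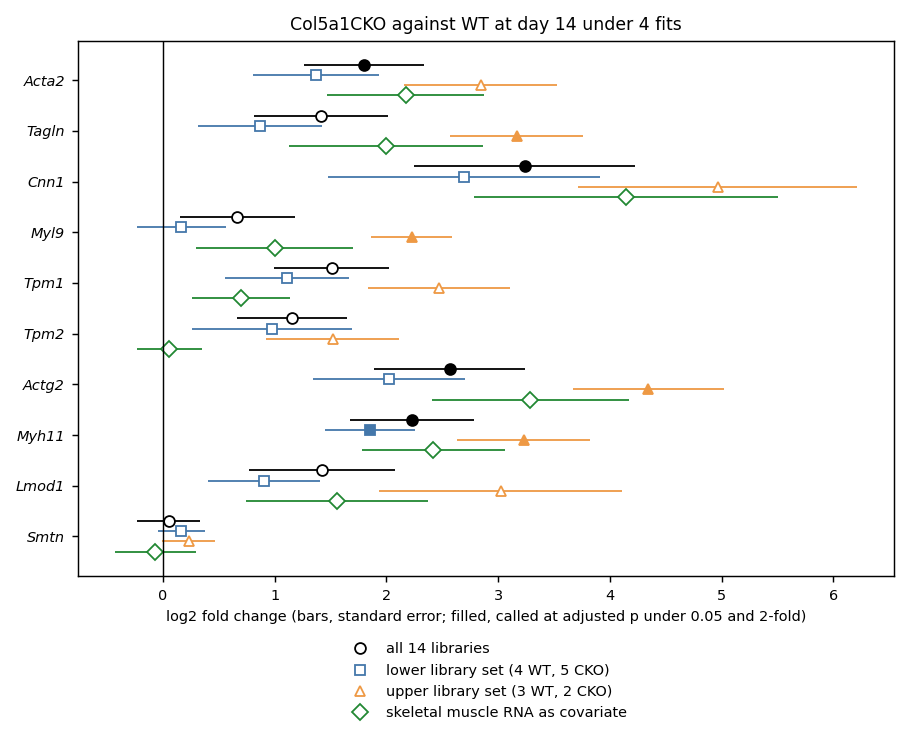
Log2 fold change of Col5a1CKO against WT at day 14 for each gene, with its standard error, in all 14 wounds, within each library set, and with skeletal muscle RNA as a covariate. Filled marks are called; the upper set shows the largest folds for all members, and the skeletal muscle covariate moves Tpm2 from 1.15 to 0.06.

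The comparison was repeated within each library set. In the lower set (4 WT, 5 Col5a1CKO) 1 member was called, Myh11 (log2 fold change 1.85, SE 0.40, adjusted p = 0.0213), against 3.68% of all genes. In the upper set (3 WT, 2 Col5a1CKO) 4 were called, Tagln (3.17), Myl9 (2.22), Actg2 (4.34) and Myh11 (3.23), against 8.81%. Acta2 had a log2 fold change of 1.37 in the lower and 2.84 in the upper set, called in neither (adjusted p = 0.156 and adjusted p = 0.0638). WT wounds of the upper set had 55.7 to 194.7 CPM of Acta2 and those of the lower set 93.3 to 601. These upper WT wounds also had the most keratinocyte RNA, 106108 to 159082 CPM over 6 markers against 32321 to 35593 in the lower set. The part of keratinocyte RNA was not tested. With the set as a covariate, 6 of the 10 were called, Acta2, Tagln, Cnn1, Tpm1, Actg2 and Myh11, against 9.04%. Among wounds of the lower set with Y-linked RNA, 2 WT and 4 Col5a1CKO, none was called, and the folds were 2.64 for Acta2, 5.96 for Cnn1 and 1.85 for Myh11. The share of all genes called in that fit is not given here, so its lack of calls says nothing particular to the members.

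Skeletal muscle RNA moved with the tropomyosins. Its 14 markers summed to 24.4 to 13670.1 CPM in WT and 82.7 to 24359 in Col5a1CKO wounds of day 14, with 0 of 14 called, all above 0 in log2 fold change (median 1.72), and none at 0 counts in any wound. Within groups and library sets, over the 23 wounds, log2(CPM + 1) of Tpm1 and Tpm2 followed that of this sum (Pearson r = 0.913 and 0.89), and the other 8 members did not (r = -0.398 to 0.049). The wounds share their biopsies and libraries in this relation. With the sum as a covariate, the day 14 log2 fold change was 0.70 for Tpm1 and 0.06 for Tpm2, 2.17 for Acta2 and 4.15 for Cnn1. In that fit no member was called (adjusted p = 0.0681 for Actg2, adjusted p = 0.0651 for Myh11), against 1.04% of all genes.

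**Figure D3:**
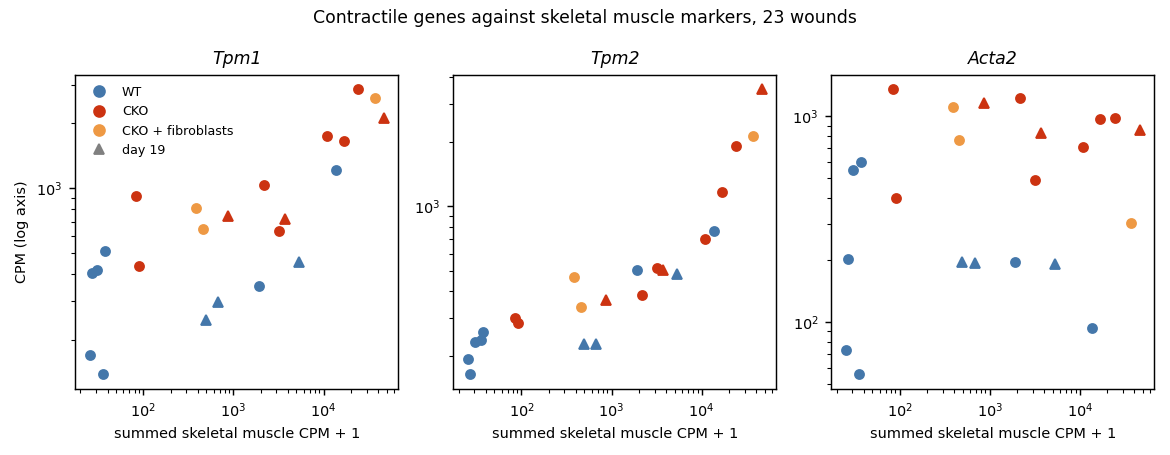
CPM of Tpm1, Tpm2 and Acta2 in each of 23 wounds against the summed CPM of 14 skeletal muscle markers + 1, both on log axes, with circles for day 14 and triangles for day 19. Tpm1 and Tpm2 are highest in the wounds with most skeletal muscle RNA, up to 3534 CPM of Tpm2 at a sum of 46382, and Acta2 shows no such rise.

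Other genes of the pathway were counted at day 14 from lists of known function. Of 23 contraction partners tested, 1 rose, Actn1, an actin cross-linker of adhesions (log2 fold change 1.08, adjusted p = 0.013), 0 fell, and the median log2 fold change was 0.88. Mylk, the kinase that switches on smooth muscle myosin, had 15.1 to 157 CPM (median 46.7) in WT and 49.4 to 208 CPM (median 88.5) in Col5a1CKO wounds (log2 fold change 0.73, adjusted p = 0.333). Of 11 genes of the serum response factor axis, Tead1, a factor that binds MCAT elements, rose (log2 fold change 1.08, adjusted p = 0.00937) and Fhl2, a cofactor of this axis, fell (log2 fold change -1.30, adjusted p = 0.00861). Srf itself was 16.2 to 97.9 CPM (median 30.4) in WT and 26.0 to 98.2 CPM (median 39.2) in Col5a1CKO wounds (log2 fold change 0.13, adjusted p = 0.89). Myocd, the muscle-restricted cofactor, was at most 0.376 CPM in WT and 1.19 CPM in Col5a1CKO wounds, too low to be tested. Of 12 non-muscle paralogs, such as Actb and Myh9, 0 were called (median 0.36).

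Markers of several cell types also differed between the genotypes at day 14. Of 14 genes of activated fibroblasts 8 rose and 0 fell, led by Tnc (3.01), a matrix protein of injury, Thbs1 (2.98), Ctgf (2.33) and Col12a1 (2.17), and their sum was 2077 to 29001 CPM in WT and 8292 to 50550.2 in Col5a1CKO wounds. Of 8 fibroblast markers Pdgfra (2.36) and Thy1 (1.14) rose, and of 10 markers of mural cells, the cells around vessels, Pdgfrb (2.15) and Mcam (1.60) did. The mural list was split, with 6 of 10 above 0 in log2 fold change (median 0.37). Ndufa4l2 (-1.71) and Notch3 (-1.09) were among those below 0, and neither was called. The mural sum was 277 to 772 CPM in WT and 464 to 691 in Col5a1CKO wounds, and the pericyte marker Rgs5 did not pass (log2 fold change 0.55, adjusted p = 0.61). None of the endothelial, fibroblast, leukocyte or keratinocyte markers was at 0 in any wound of this table. Keratinocyte markers summed to 32321 to 159082 CPM in WT and 33.7 to 61285 in Col5a1CKO wounds, with 0 of 6 called and all 6 below 0. Of the endothelial markers 4 of 6 rose and of the leukocyte markers 4 of 7. Adipocyte markers summed to 0.0733 to 13.3 CPM in WT and 1.51 to 61.5 in Col5a1CKO wounds, with 0 of 2 tested called. The part of these cell types in the members' difference was not tested.

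At day 19 the 10 contractile genes again had log2 fold changes above 0 in Col5a1CKO wounds, led by calponin, and Cnn1 alone passed the edgeR test. It was among only 3 of 15135 genes called higher (0.0198%), with none lower, so that the test with 3 against 3 wounds called almost nothing. At an unadjusted p under 0.05, 9 of the 10 members (all but Tpm2) and 3652 of all genes (24.1%) passed. DESeq2 called 8 of the 10, all but Tpm2 and Smtn, against 4.52% of all genes. The median log2 fold change of the members was 2.09, against -0.01 over all genes. For 9 of the 10, again all but Tpm2, every Col5a1CKO wound was above every WT wound, where 16.4% of all genes did so.

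Acta2 had 192, 195 and 194 CPM in the WT and 1155, 827 and 854 CPM in the Col5a1CKO wounds of day 19 (log2 fold change 2.35, SE 0.27, adjusted p = 0.11). The WT wounds were almost level, and the lowest Col5a1CKO wound had over 4 times as much. Actg2 had 9.18, 15.3 and 15.8 CPM in WT and 178, 123 and 112 CPM in Col5a1CKO wounds (log2 fold change 3.43, SE 0.31, adjusted p = 0.0761). Cnn1 had 4.99, 6.40 and 3.92 CPM in WT and 98.7, 64.6 and 64.2 CPM in Col5a1CKO wounds (log2 fold change 3.97, SE 0.28, adjusted p = 0.0355). Calponin had the largest fold of the members here as at day 14. Lmod1 had 6.84, 5.10 and 5.20 CPM in WT and 29.4, 23.8 and 30.1 CPM in Col5a1CKO wounds (log2 fold change 2.34, SE 0.22, adjusted p = 0.0761). Tagln had 118, 132 and 108 CPM in WT and 469, 395 and 406 CPM in Col5a1CKO wounds (log2 fold change 1.90, SE 0.19, adjusted p = 0.0974). In each of these genes the lowest Col5a1CKO wound was far above the highest WT wound.

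Neither myosin gene was called at day 19. Myh11 had 48.7, 39.0 and 52.2 CPM in WT and 132, 97.4 and 138 CPM in Col5a1CKO wounds (log2 fold change 1.45, SE 0.22, adjusted p = 0.11). Myl9 had 82.5, 82.5 and 92.8 CPM in WT and 176, 157 and 210.1 CPM in Col5a1CKO wounds (log2 fold change 1.14, SE 0.18, adjusted p = 0.11). Smtn had 142, 169.9 and 150.5 CPM in WT and 207, 185 and 216 CPM in Col5a1CKO wounds (log2 fold change 0.47, SE 0.16, adjusted p = 0.164). For all 3 the lowest Col5a1CKO wound stood above the highest WT wound, by little for Smtn. Tpm1 had 454, 247 and 298 CPM in WT and 744, 720.0 and 2099 CPM in Col5a1CKO wounds (log2 fold change 1.88, SE 0.55, adjusted p = 0.145). Tpm2 had 480.4, 228 and 226 CPM in WT and 365, 505 and 3534 CPM in Col5a1CKO wounds (log2 fold change 2.28, SE 0.98, adjusted p = 0.22). Col5a1CKO c, the highest for both tropomyosins, was also the wound with most skeletal muscle RNA, 46382 CPM over the 14 markers, against 865 and 3757 in Col5a1CKO a and b and 489 to 5281 in WT wounds. With that sum as a covariate the folds were 1.30 for Tpm1 and 0.71 for Tpm2, and neither a member nor any other gene was called.

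The day 19 calls depended on single wounds: without WT c 7 members were called (Acta2, Tagln, Cnn1, Myl9, Actg2, Myh11 and Lmod1), where 412 of all genes were called higher. Without any other single wound no member was called, and neither was any other gene. Activated fibroblast markers summed to 2275 to 18571 CPM in WT and 30915 to 45229 in Col5a1CKO wounds, mural markers to 477 to 763 and 881 to 1086, and keratinocyte markers to 14398 to 25995 and 6804 to 21395. None of these lists, nor the contraction partners (median 1.31), the serum response factor axis (0.92) or the non-muscle paralogs (0.58), had a gene called at day 19. Srf had 68.9, 68.6 and 56.6 CPM in WT and 116, 102 and 113 CPM in Col5a1CKO wounds (log2 fold change 0.84, adjusted p = 0.11), and Myocd 0.529, 0.383 and 0.392 and 0.738, 1.05 and 1.35 CPM (log2 fold change 1.32, adjusted p = 0.147). Mylk had 118, 104 and 183 CPM in WT and 182, 192 and 221 CPM in Col5a1CKO wounds (log2 fold change 0.60, adjusted p = 0.244). The part of the cell types was not tested.

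**Figure D4:**
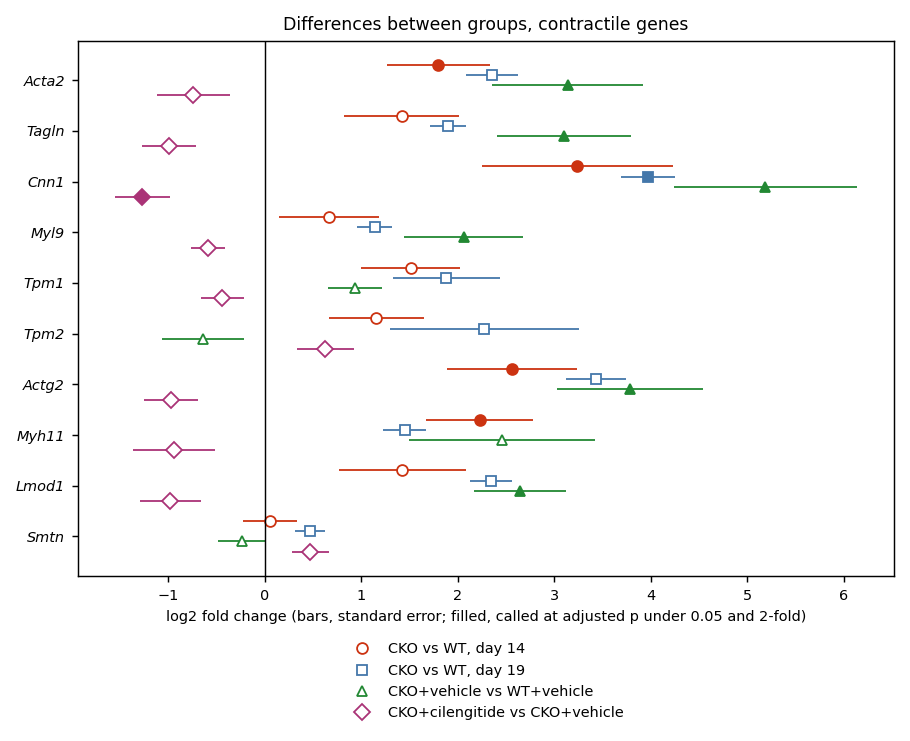
Log2 fold change of each contractile gene with its standard error in 4 comparisons, with filled marks for called genes. Cnn1 has the largest rise with Col5a1 deletion in each of the 3 genotype comparisons (3.24, 3.97 and 5.19) and the largest fall with cilengitide (-1.27).

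Whether the genotype effect differed between the days was tested as an interaction, fitted to 20 wounds. The difference, day 19 minus day 14, ranged from -0.79 for Myh11 to 1.15 for Tpm2 on the log2 scale. No member had an edgeR adjusted p under 0.05 or an unadjusted p under 0.05, DESeq2 called none. Of all 15954 genes edgeR called 0, with 939 at an unadjusted p under 0.05, and DESeq2 called 0.150% higher and 0.100% lower. The difference was 0.54 for Acta2 (SE 0.84) and 0.71 for Cnn1 (SE 1.46), which does not show that the days were alike.

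Between days 14 and 19 Myh11 and Smtn, genes of differentiated smooth muscle, were the members whose ranges separated within both genotypes. In WT wounds 0 of 10 members were called by edgeR (of 15180 genes, 1.50% were called higher and 4.25% lower), 2 had an unadjusted p under 0.05, and DESeq2 called 1, Myh11, against 4.33% of all genes. Myh11 was 1.64 to 16.4 CPM (median 9.58) at day 14 and 48.7, 39.0 and 52.2 CPM at day 19 (log2 fold change 2.41, SE 0.65, adjusted p = 0.0532). Smtn was 49.5 to 134 CPM (median 81.5) at day 14 and 142, 169.9 and 150.5 CPM at day 19 (log2 fold change 0.82, SE 0.30, adjusted p = 0.123). Only for these did all day 19 wounds lie above all day 14 wounds, where 7.47% of all genes did so. All day 19 wounds were of the upper library set. Against the 3 WT wounds of day 14 in that set, 3 members rose, Myh11 (log2 fold change 4.25, SE 0.39, adjusted p = 0.00352), Myl9 (log2 fold change 1.69, SE 0.25, adjusted p = 0.00785) and Tagln (log2 fold change 1.39, SE 0.36, adjusted p = 0.0302), against 14.2% of all genes. Smtn then had a log2 fold change of 0.44 (adjusted p = 0.0514). In this set the 3 day 14 WT wounds had Y-linked RNA, while 1 day 19 WT wound had Y-linked and 2 had Xist RNA. The part of sex in these values was not tested. For Acta2, Cnn1, Tpm1, Tpm2 and Actg2 the log2 fold change was below 0 over all 10 WT wounds and above 0 within the upper set (0.14 to 1.78), called in neither. Tagln and Myl9, called within the upper set, were also below 0 over all 10 WT wounds (-0.66 and -0.28).

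In Col5a1CKO wounds 1 member was called between the days, Smtn, with 59.3 to 164 CPM (median 82.3) at day 14 and 207, 185 and 216 CPM at day 19 (log2 fold change 1.12, SE 0.29, adjusted p = 0.0446), where 1.87% of all genes were called higher. Myh11 was 13.0 to 83.0 CPM (median 34.4) at day 14 and 132, 97.4 and 138 CPM at day 19 (log2 fold change 1.55, SE 0.46, adjusted p = 0.0621), and DESeq2 called both, against 3.29% of all genes. For both, no day 19 wound reached down to a day 14 wound, where 7.67% of all genes stood apart in this direction. The other 8 members had log2 fold changes of -0.25 to 0.95, the highest for Tpm2, which was -0.79 without Col5a1CKO c of day 19, the wound richest in skeletal muscle RNA. Smtn lost its call without any 1 of the 3 day 19 wounds and within the upper set (log2 fold change 0.63, SE 0.22, adjusted p = 0.187), where no member was called. In those fits 0 to 12 of all genes were called higher. Col5a1CKO f and g, the day 14 wounds of the upper set, had 108.8 and 163.9 CPM of Smtn, and those of the lower set 59.3 to 95.1.

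With injected WT fibroblasts none of the contractile genes passed the test in either direction. Against Col5a1CKO wounds of day 14, edgeR called 0 of 10 members and 0 of 15659 genes, with 0 members and 2001 genes at an unadjusted p under 0.05, and DESeq2 called 0 members, with 9 genes higher (0.0575%) and 10 lower (0.0639%). The members' log2 fold changes were -0.75 to 0.63, with a median of -0.36 against -0.04 over all genes. Acta2 had 303, 1107 and 764 CPM with fibroblasts and 402 to 1357 CPM (median 966) without (log2 fold change -0.28, SE 0.47, adjusted p = 0.797). Cnn1 had 9.82, 55.6 and 42.8 CPM with fibroblasts and 18.5 to 101 CPM (median 69.3) without (log2 fold change -0.75, SE 0.60, adjusted p = 0.568). Replicate a with fibroblasts was the lowest of its group for both, and had 37512 CPM of skeletal muscle markers against 386 and 456 in b and c. Without it the log2 fold change was 0.10 for Acta2, and for the tropomyosins, which were highest in that wound, it was -0.87 for Tpm1 (0.03 with it) and -0.90 for Tpm2 (0.38 with it). Tagln had 170.0, 449 and 409 CPM (log2 fold change -0.55, SE 0.43, adjusted p = 0.561), Actg2 46.9, 129.7 and 111 CPM (log2 fold change -0.62, SE 0.48, adjusted p = 0.549) and Myh11 30.4, 32.0 and 27.1 CPM (log2 fold change -0.49, SE 0.49, adjusted p = 0.651). Smtn had 127, 177 and 128 CPM (log2 fold change 0.63, SE 0.30, adjusted p = 0.401), above all Col5a1CKO wounds without fibroblasts but g. All wounds with fibroblasts were of the upper library set. Against the 2 Col5a1CKO wounds of that set, the fold of each member was between -0.35 for Cnn1 and 0.38 for Myh11, and 0 of 15559 genes were called.

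Against WT wounds of day 14, the Col5a1CKO wounds with fibroblasts had all 10 members above 0 in log2 fold change (median 1.66), with 0 called by edgeR, 6 at an unadjusted p under 0.05 and 0 called by DESeq2. Of all 15316 genes, 3.77% were called higher by edgeR and 5.60% by DESeq2. Acta2 had a log2 fold change of 1.66 (adjusted p = 0.195) and Cnn1 of 2.63 (adjusted p = 0.25). Myh11 was the 1 member for which these groups did not overlap, where 9.92% of all genes stood apart in this direction. Against the 3 WT wounds of the upper set, 8 members were called, all but Tpm2 and Smtn, against 19.8% of all genes, with Cnn1 at 4.63, Actg2 at 4.11, Myh11 at 3.61 and Acta2 at 2.88. In that set the WT wounds had Y-linked RNA and those with fibroblasts Xist RNA, so sex and group cannot be told apart. Both comparisons share the wounds with fibroblasts, and this one shares the WT wounds with that of Col5a1CKO and WT, so their values are only set side by side. Activated fibroblast markers summed to 8169.8 to 14449 CPM with fibroblasts, and keratinocyte markers to 12532 to 30233, and the part of these cell types in the members' levels was not tested.

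In the cilengitide experiment, 6 of the 10 contractile genes were called higher in vehicle-treated Col5a1CKO than in vehicle-treated WT wounds, and Tpm2 and Smtn had log2 fold changes below 0, where 17.5% of 15434 genes were called higher. DESeq2 called the same 6 and Myh11, against 20.6%. Acta2 had 127, 317, 34.9 and 38.8 CPM in WT and 1622, 903, 730.4 and 1469 CPM in Col5a1CKO wounds (log2 fold change 3.14, SE 0.78, adjusted p = 0.013). Actg2 had 11.1, 20.7, 3.40 and 2.06 CPM in WT and 165, 124, 78.9 and 164 CPM in Col5a1CKO wounds (log2 fold change 3.79, SE 0.76, adjusted p = 0.00541). WT 3 and 4 had the least of both actins, and no WT wound reached a Col5a1CKO wound. Cnn1 had 1.22, 3.25, 0.0719 and 0.590 CPM in WT and 59.3, 39.8, 38.4 and 56.6 CPM in Col5a1CKO wounds (log2 fold change 5.19, SE 0.95, adjusted p = 0.00391). Tagln had 56.5, 119, 13.5 and 22.6 CPM in WT and 503, 444, 286 and 645 CPM in Col5a1CKO wounds (log2 fold change 3.10, SE 0.70, adjusted p = 0.00863). Calponin again had the largest fold, with WT 3 close to the limit of detection. Lmod1 had 2.45, 4.19, 2.10 and 0.859 CPM in WT and 14.7, 19.0, 9.45 and 18.7 CPM in Col5a1CKO wounds (log2 fold change 2.64, SE 0.48, adjusted p = 0.00373).

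Of the myosin genes with vehicle, Myl9 had 54.1, 88.2, 10.9 and 19.0 CPM in WT and 217, 185, 147 and 192 CPM in Col5a1CKO wounds (log2 fold change 2.06, SE 0.62, adjusted p = 0.0262). Myh11 had 9.18, 11.7, 0.791 and 0.769 CPM in WT and 52.3, 28.9, 12.1 and 33.9 CPM in Col5a1CKO wounds (log2 fold change 2.46, SE 0.97, adjusted p = 0.0675), a change that did not pass. Its highest WT wound and its lowest Col5a1CKO wound nearly met. Tpm1 had 349, 359, 525 and 280.3 CPM in WT and 989.7, 641, 551 and 805 CPM in Col5a1CKO wounds (log2 fold change 0.94, SE 0.28, adjusted p = 0.0264), which passed the adjusted p but not the 2-fold minimum. Tpm2 had 387, 225, 628 and 231 CPM in WT and 341, 179, 142 and 311 CPM in Col5a1CKO wounds (log2 fold change -0.64, SE 0.43, adjusted p = 0.242). Smtn had 101, 129, 70.7 and 97.2 CPM in WT and 104, 108, 62.3 and 72.9 CPM in Col5a1CKO wounds (log2 fold change -0.24, SE 0.25, adjusted p = 0.459). Tpm2 and Smtn overlapped between the groups, and the other 8 members did not, where 24.1% of all genes stood apart in the higher direction. Without WT 1, WT 4 or Col5a1CKO 1, Myl9 lost its call (5 called), and without WT 3 or Col5a1CKO 3, Tpm1 gained one (7 called). Of all genes, 2706 were called higher with all wounds. There were 2545, 2194 and 2473 without WT 1, WT 4 and Col5a1CKO 1. Without WT 3 and Col5a1CKO 3 there were 2203 and 2306.

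**Figure D5:**
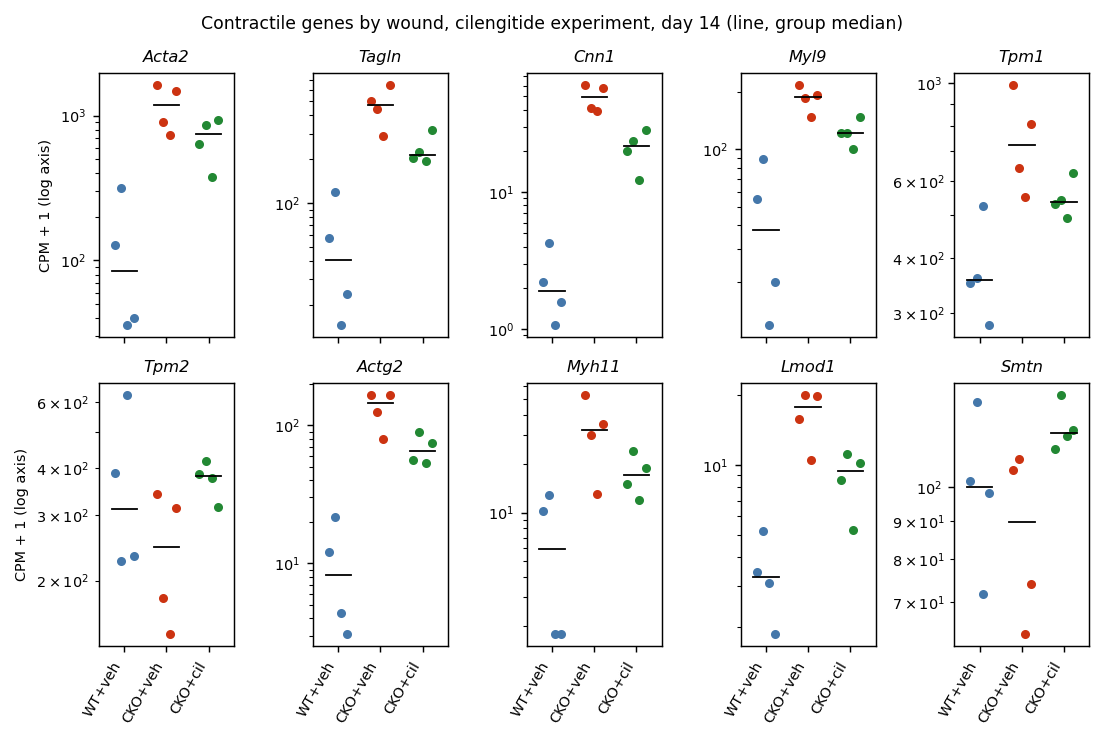
Level of each contractile gene in each wound of the cilengitide experiment, as CPM + 1 on a log axis, with the line at the group median. The 4 cilengitide wounds lie between the other groups for Cnn1 (11.2 to 27.5 CPM) and above the vehicle-treated Col5a1CKO wounds for Smtn (111.6 to 132.2 CPM).

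Calponin fell with cilengitide, and for 8 of the 10 contractile genes, all but Tpm2 and Smtn, the median with cilengitide lay between those of the vehicle-treated groups. The share of all genes with such an order of medians is not given here, so this count is not shown to be particular to the members. Of the 10 members, Cnn1 fell past the test, where 6.59% of 15563 genes were called lower, and DESeq2 called the same gene against 9.48%. Cnn1 had 18.8, 22.5, 11.2 and 27.5 CPM with cilengitide, below every vehicle-treated Col5a1CKO wound (log2 fold change -1.27, SE 0.29, adjusted p = 0.0193). Tagln had 202, 224, 194 and 316 CPM (log2 fold change -0.996, SE 0.28, adjusted p = 0.0366), Actg2 54.5, 88.6, 52.5 and 73.3 CPM (log2 fold change -0.98, SE 0.28, adjusted p = 0.0373) and Myl9 120.5, 121, 99.5 and 147 CPM (log2 fold change -0.59, SE 0.17, adjusted p = 0.0403). These 3 passed the adjusted p but not the 2-fold minimum, and with Cnn1 they make 4 of 10 by the adjusted p alone, where 12.2% of all genes fell. Acta2 had 634, 866, 374 and 928 CPM (log2 fold change -0.74, SE 0.38, adjusted p = 0.178), with replicates 2 and 4 inside the range of the vehicle-treated wounds. Lmod1 had 7.57, 10.1, 4.24 and 9.18 CPM (log2 fold change -0.98, SE 0.32, adjusted p = 0.0568) and Myh11 14.1, 22.8, 11.0 and 17.8 CPM (log2 fold change -0.94, SE 0.42, adjusted p = 0.134). Neither passed. For Cnn1 alone did the wounds with cilengitide all lie below those with vehicle, where 13.4% of all genes did so.

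Of the remaining members none passed, and Tpm2 and Smtn had log2 fold changes above 0. Tpm1 had 529, 541, 491 and 623 CPM with cilengitide (log2 fold change -0.44, SE 0.23, adjusted p = 0.18), Tpm2 386, 416, 376 and 313 CPM (log2 fold change 0.62, SE 0.30, adjusted p = 0.153) and Smtn 112, 132, 116 and 118 CPM (log2 fold change 0.47, SE 0.19, adjusted p = 0.105). Every cilengitide wound had more Smtn than every vehicle-treated Col5a1CKO wound, where 18.1% of all genes stood apart upward. The median log2 fold change of the members was -0.84, against -0.06 over all genes. Without cilengitide replicate 1 no member was called, without cilengitide 2 or 4 there were 2, without vehicle 2 there were 3 and without vehicle 3 there were 5. Of all genes, 1025 were called lower with all wounds, 334 without cilengitide 1, 426 and 907 without cilengitide 2 and 4, and 1417 and 406 without vehicle 2 and 3.

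Compared with vehicle-treated WT wounds, the cilengitide wounds still had 4 of 10 members called higher, Tagln (log2 fold change 2.15, SE 0.63, adjusted p = 0.0478), Cnn1 (log2 fold change 3.96, SE 0.90, adjusted p = 0.0263), Actg2 (log2 fold change 2.85, SE 0.69, adjusted p = 0.0297) and Lmod1 (log2 fold change 1.70, SE 0.46, adjusted p = 0.0395), where 5.15% of 15514 genes were called higher. Acta2 had a log2 fold change of 2.44 (adjusted p = 0.0506), which missed the threshold, and DESeq2 called 6, with Acta2 and Myl9 added, against 9.33%. For the same 6 members no cilengitide wound reached down to a WT wound, where 14.5% of all genes stood apart so. The count was 6 without WT 2, 2 without cilengitide 1, 1 without WT 1, 3 or 4, and 0 without cilengitide 2, 3 or 4. Of all genes, 1192 were called higher without WT 2, 584 without cilengitide 1, 715, 87 and 287 without WT 1, 3 and 4, and 3, 1 and 1 without cilengitide 2, 3 and 4. The 3 comparisons of this experiment share their vehicle-treated groups, so the folds are given side by side: for Cnn1 they were 5.19 with Col5a1 deletion, -1.27 with cilengitide and 3.96 for the remaining difference, and for Acta2 3.14, -0.74 and 2.44.

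The lists of the wider pathway were counted here as well. With vehicle, 9 of 23 contraction partners rose in Col5a1CKO wounds and 1, the small heat shock protein Hspb1, fell (-2.93). Kcnmb1, a smooth muscle potassium channel subunit, had the largest rise (3.58), followed by Itga8 (2.31), an integrin of mesenchymal cells, Pdlim7 (2.03) and Cald1 (2.03), the actin-binding caldesmon. Mylk did not pass (log2 fold change 0.93, adjusted p = 0.316). In the serum response factor axis, Fos (3.43), Junb (2.66) and Egr1 (1.91), early response genes, rose and Klf4 fell (-2.69), while Srf had 65.2, 76.3, 62.0 and 60.4 CPM in WT and 69.5, 71.7, 73.5 and 97.4 CPM in Col5a1CKO wounds (log2 fold change 0.20, adjusted p = 0.286). Of 12 non-muscle paralogs 5 rose: Actb, Actg1, Myh9, Tpm4 and Cnn3, by 1.01 to 1.45. With cilengitide none of the contraction partners or paralogs fell past the test, Hspb1 rose (2.41), Fos fell (-2.01) and Klf4 rose (2.10). Myocd stayed at or under 0.746 CPM in every wound of this table.

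Cell type markers moved with these comparisons too. With vehicle, 7 of 14 activated fibroblast genes rose, led by Thbs1 (5.42), 4 of 8 fibroblast, 6 of 7 leukocyte and 3 of 6 endothelial markers rose, and 4 of 6 keratinocyte markers fell. Of 10 mural markers Kcnj8 and Mcam rose and Notch3 and Ndufa4l2 fell. Keratinocyte markers summed to 62817 to 99879 CPM in WT, 63.1 to 12322 in Col5a1CKO and 34508 to 69747 in cilengitide wounds, and leukocyte markers to 234 to 2448, 2650.3 to 45642 and 3544 to 7596. Activated fibroblast markers summed to 2299 to 11131, 25509 to 37276 and 11899 to 18827 CPM, fibroblast markers to 10396 to 56540.0, 27175 to 118494 and 41291 to 79202, and mural markers to 363 to 679.5, 447 to 1067 and 434 to 597. Skeletal muscle markers summed to 50.4 to 5315, 14.5 to 2039 and 81.3 to 1104 CPM, with Myh2, Myl1 and Pvalb at 0 counts in 1 or 2 of the 12 wounds. With vehicle all 14 were below 0 in log2 fold change (median -2.29) and 0 were called. Within groups, over these 12 wounds, Pearson r with that sum was 0.448 for Tpm1 and 0.597 for Tpm2. With cilengitide 3 of 6 keratinocyte markers rose and 4 of 7 leukocyte, 2 of 14 activated fibroblast (Thbs1 and Tgfb1) and 1 of 8 fibroblast markers (Vim) fell. Of the 10 mural markers, Notch3 rose (log2 fold change 1.39, adjusted p = 0.0448) and 0 fell past the test. Only 2 of the 10 were above 0 in log2 fold change (median -0.32). Of the vehicle-treated WT wounds 2 had Xist and 2 Y-linked RNA, and of the vehicle-treated Col5a1CKO wounds 3 had Y-linked RNA. Vehicle-treated Col5a1CKO replicate 2 had neither Xist nor Y-linked RNA. Of the cilengitide wounds 2 had Y-linked and 2 Xist RNA. The part of sex was not tested. The part of these cell types in the members' difference was not tested.

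The covariation of the members within groups was described last. With each gene centred within its group and library set, the 45 pairs of members had a median Pearson r of 0.353 over the 23 wounds of days 14 and 19 (-0.279 to 0.955) and of 0.667 over the 12 wounds of the cilengitide experiment (-0.336 to 0.966). The genes most like the mean of the members were Tmsb10 (0.886), Fam101b (0.878), Efha2 (0.839), Cald1 (0.827) and Ift81 (0.812) among 12038 genes in the first table. They were Col13a1 (0.967), Cnn2 (0.944), Tgfb2 (0.938), Vwa1 (0.933) and Gbp9 (0.927) among 11609 genes in the other, and 7 of the 50 most alike genes of each table (14.0% of each list) were shared. Cald1, Cnn2 and Tmsb10 encode actin-binding proteins. Genes of a wound share its biopsy, library and depth, and these values are descriptions.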

How the data were processed

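Bulk RNA-seq of 35 wounds in 8 groups was analysed, grouped by the sample titles. The authors deposited raw counts in 2 tables, of which the table of days 14 and 19 holds counts on RefSeq transcripts from 50 bp single-end reads aligned to NCBI37/mm9 with HISAT2 and counted with SeqMonk on exons. The submitters' processing notes name mm9 and HISAT2 for the cilengitide table too, and its counter is not given in the sources used here. The kit kept strand, and whether counting used it is not stated. Of 29082 rows in the first table, 30 without a symbol (at most 0.0694% of counts) were dropped and the row with the largest total was kept per symbol, which matters for Tpm1, Myh11 and Smtn. Both tables then held 22830 symbols. The members and lists were chosen with earlier results of these data known. Named genes were all members, Srf, Myocd, Mylk, Col5a1, called genes of each list (up to 4 a direction) and the 5 genes most like the members.

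Each pair of groups was fitted in edgeR 4.0.16 (R 4.3.3, limma 3.58.1) with TMM factors, filterByExpr (minimum count 10) and the robust quasi-likelihood test, two-sided, with Benjamini-Hochberg adjustment over all genes. The SE was taken as the size of the log2 fold change divided by the square root of F, and is approximate. Genes were called at an adjusted p under 0.05 and at least 2-fold. DESeq2 1.42.0, RLE factors, library size, no filter, all groups in a single fit, 3-fold, adjusted p alone, summed rows, library sets, a replicate block and leaving out single wounds were alternatives. In comparisons with fibroblasts or between days, day 14 wounds without fibroblasts were not left out. Covariates for skeletal muscle RNA and sex RNA, and the fit of Y-RNA wounds, were added after the data were seen. The fit was also run on simulated counts that held no library sets or mixtures of tissue, so they cannot show how it does with these. CPM and RPKM (from transcript length, first table) were computed in Python 3.11.15 with pandas 2.3.3 and numpy 2.4.6, and plots drawn in matplotlib 3.10.9. No pair of libraries agreed so closely as to be the same library (highest correlation 0.99).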

Additional observations from a re-analysis of the deposited data

Results flagged for a closer look

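Tpm1 in WT wound a of day 14 stood apart from the rest of its group, with 1215 CPM against 138 to 511 in the other 6 WT wounds of that day. The same wound had 13670.1 CPM of the 14 skeletal muscle markers, against 24.4 to 1911 in the others, and the part of skeletal muscle RNA in this value was not tested on its own. It was the 1 such value among 50 groups of samples examined for the members, and chance alone marks about 1 in 20.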

How the results depend on the processing

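Of the members' log2 fold changes in all refits except those that left 1 wound out, 709 kept their direction and side of the threshold. Of the rest, 30 lost a call, 53 gained one and 48 changed sign. These refits include the replicate block and the wounds with Y-linked RNA, which used fewer wounds. The number of members called at day 14 (4) was 1 within the lower library set, 0 in its wounds with Y-linked RNA (Tpm2 -0.18), 0 with skeletal muscle RNA as a covariate (Smtn -0.07) and 0 to 5 with a wound left out. At day 19 (1) it was 8 with DESeq2, 0 with library size only, all groups in a single fit, the replicate block or skeletal muscle RNA, and 0 to 7 with a wound left out. The fibroblast comparison with Col5a1CKO had 0 with any single fibroblast wound left out, and wounds without fibroblasts were not left out there. Within the upper set Acta2 was 0.04, Myl9 0.14 and Myh11 0.38. With the set as a covariate Myl9 was 0.09 and Myh11 0.33, and with skeletal muscle RNA Tpm1 was -0.06. Against WT, the fibroblast wounds had 1 called with all groups fitted, 7 with the set as a covariate and 8 within the upper set. There were 0 with any single fibroblast wound left out, and no WT wound was left out there. Between the days in WT wounds (0), 1 was called with DESeq2, RLE factors, no filter, all groups or summed rows. It was 2 with library size only or the set as a covariate, 3 within the upper set and 0 with a day 19 wound left out. Day 14 wounds were not left out between the days. There, library size only gave Acta2 0.07, Cnn1 0.14, Myl9 0.15 and Tpm2 0.33, the set covariate Acta2 0.97, Tagln 1.39, Cnn1 1.77, Myl9 1.68, Tpm1 0.73, Tpm2 0.14 and Actg2 1.26, the upper set Acta2 0.98, Tagln 1.39, Cnn1 1.78, Myl9 1.69, Tpm1 0.74, Tpm2 0.14 and Actg2 1.26, and skeletal muscle RNA Acta2 0.25, Tagln 0.40, Cnn1 1.56, Myl9 0.33 and Actg2 0.23. Between the days in Col5a1CKO wounds (1), 2 were called with DESeq2 and 0 at 3-fold, without the filter, with the set as a covariate, within the upper set, with skeletal muscle RNA or with a day 19 wound left out, and the set covariate gave Tagln 0.01, Tpm1 0.04 and Actg2 0.23 and the upper set 0.05, 0.08 and 0.28. With vehicle, 5 to 7 were called with a wound left out. With cilengitide against vehicle (1), 0 were called at 3-fold or with all groups fitted, 4 by adjusted p alone and 0 to 5 with a wound left out, and against WT 0 to 6. In the interaction, library size only gave Tagln -0.07, Myl9 -0.05, Tpm1 -0.13 and Smtn -0.14. Where the share of all genes called in the same fit is not given above, a count is not shown to be particular to the members. The cause of these changes was not tested.

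With a wound left out, log2 fold changes that changed sign ranged from -0.16 to 0.16 for Smtn at day 14, with fibroblasts from -0.71 to 0.10 for Acta2, -0.87 to 0.37 for Tpm1 and -0.90 to 0.79 for Tpm2, between the days in WT from -0.47 to 0.19 for Tpm2 and -0.01 to 0.24 for Lmod1, between the days in Col5a1CKO from -0.06 to 0.20 for Acta2, -0.00 to 0.21 for Myl9, -0.86 to 0.10 for Tpm1, -0.79 to 1.43 for Tpm2 and -0.32 to 0.03 for Actg2, and with cilengitide against WT from -0.13 to 0.42 for Tpm2. The replicate letters did not pair the wounds (correlation of deviations -0.447 to 0.573 at day 14, -0.409 to -0.319 at day 19). With the letter as a replicate block the counts were 3 at day 14 and 0 at day 19. They were 1 and 4 for fibroblasts against Col5a1CKO and WT, and 2 and 1 between the days in WT and Col5a1CKO. Tpm1 was -0.10 and Myl9 -0.06 in the fibroblast comparisons. Cnn1 was 1.63 and Lmod1 -0.49 between the days in WT, and Acta2 -0.18, Cnn1 -0.03 and Myl9 -0.07 in Col5a1CKO. With fibroblasts and between the days only letters a to c were shared. Their day 14 wounds without fibroblasts were all of the lower library set, and the others all of the upper set. Group and library set cannot be told apart in those fits. The share of all genes called with the block is not given here. No paired analysis was possible for the cilengitide experiment because its groups share no replicate numbers in the labels.

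The lower set gave no value for the fibroblast comparisons or for day 19, which had no wounds in it. At day 19, with groups of 3, 3 of 15135 genes passed. Cnn1, Lmod1, Myh11 and Myocd were near the floor in some WT wounds, and their folds rest there on few counts. How reads shared by Acta2, Actg2 and Acta1 were assigned is uncertain. Bulk biopsies varied in keratinocyte, leukocyte and skeletal muscle RNA between wounds.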
